A study of Sus scrofa with 6 samples.

Results

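Large White (LW) is a lean Western pig breed, and Erhualian (EHL) is a Chinese indigenous breed known for high adiposity. miR-184 and miR-193a-5p were described in the liver of newborn male piglets of these 2 breeds. They were the rows ssc-miR-184 and ssc-miR-193a-5p, 2 of the 236 rows of the table that carry the name of a pig miRNA, and they were chosen by name and by their measured signals, being higher in EHL than in LW on every array. The breed difference of both was therefore the ground of the choice, and it is given below as a description, with no test. RNA from 2 littermates was pooled for each array, and 3 litters stood behind each breed, so that there were 3 LW and 3 EHL arrays. The breeds were the only groups, and the piglets were purebred. They came from 2 neighboring farms, and which farm supplied which breed is not given in the sources used here.

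miRNAs are short RNAs that guide Argonaute proteins to messenger RNAs, mostly through pairing of the seed, the bases 2 to 8 from the 5′ end. miR-184 comes from a gene of its own with no close paralog and is best known from cornea, lens, brain and pancreatic islets, not from hepatocytes. miR-193a-5p is one arm of the miR-193a hairpin, whose other arm, miR-193a-3p, is the better studied one and is known as a brake on cell growth. In the Sscrofa11.1 gene table of RefSeq, the miR-184 gene (MIR184) lay on chromosome 7 within a long non-coding RNA gene, LOC106507693, with RASGRF1 and ANKRD34C as the nearest protein-coding genes. The miR-193a gene (MIR193A) lay on chromosome 12, next to a miR-365 gene (MIR365-2).

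The sequences below are the miRNA-specific forward primers that the study used for its RT-qPCR, which have the length and composition of mature miRNAs and are written in DNA letters. They are shown to set the seeds of both miRNAs beside that of miR-185, which came nearest to that of miR-184, and beside that of miR-378, whose signals came nearest to those of miR-193a-5p. Capitals mark bases 2 to 8.
miR-184: tGGACGGAgaactgataagggt
miR-193a-5p: tGGGTCTTtgcgggcgagatga
miR-185: tGGAGAGAaaggcagttcctga
miR-378: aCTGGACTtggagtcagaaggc

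The seeds of miR-184 and miR-193a-5p differed at 5 of their bases, and the whole sequences were 14 edits apart. Each was compared with the other 17 miRNAs with a primer, and neither shared its seed with any of them. The seed of miR-185 differed from that of miR-184 by C5G and G6A, counted from 1 at the 5′ end with the base of miR-184 first. The smallest edit distance to another primer was 11 for both miRNAs. For miR-184 it was reached by miR-146a, miR-185 and miR-378, and for miR-193a-5p by miR-133a and miR-216. Of these, miR-146a and miR-216 were blank on all 6 arrays, and the row miR-133a-3p was listed on 3 arrays, at 17, 14 and 14. G and C made up 59.1% of miR-193a-5p, which no other of the 18 primers exceeded, and 50% of miR-184, where the median was 51.1%. Whether probes bound each other's targets was not tested.

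The values are normalized fluorescence intensities on a linear scale, given as whole numbers, and are called signals here. Between 101 and 134 named rows had a signal on an array, 96 had one on all 6 arrays, and 88 were blank on all of them. EHL array 1 stood apart most. Its root mean square deviation from the breed means was 0.54 on the log2 scale over the 96 miRNAs, against 0.26 to 0.48 on the other 5 arrays, so that values are given with and without it. The label of the tissue was checked on miRNAs typical of hepatocytes. miR-122, known to be abundant in hepatocytes, was the brightest named row on all 6 arrays, with 18287 to 28071. Signals of different probes do not rank miRNAs by abundance, so only its presence is read from this. miR-192 and miR-148a were listed on all 6 arrays as well, while the row of miR-194 was blank.

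The signal of miR-184 was 28, 24 and 16 on LW arrays 1, 2 and 3, and 61, 86 and 73 on EHL arrays 1, 2 and 3. The lowest EHL array thus had 2.18 times the signal of the highest LW array, and the breeds did not overlap. LW averaged 22.7 ± 6.11 and EHL 73.3 ± 12.5 (mean ± SD of 3 arrays). On the log2 scale, the EHL/LW ratio was 1.72 (standard error 0.29), which is 3.29-fold. Without EHL array 1 it was 1.84. With each array left out in turn it ranged from 1.49 (without LW array 3) to 1.89 (without LW array 1). Quantile normalization took it from 1.72 to 1.44.

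The signal of miR-193a-5p was 34, 29 and 25 on LW arrays 1, 2 and 3, and 44, 76 and 73 on EHL arrays 1, 2 and 3. EHL arrays 2 and 3 lay close together and EHL array 1 well below them, nearer to LW array 1 than to the other EHL arrays. LW averaged 29.3 ± 4.51 and EHL 64.3 ± 17.7 (mean ± SD of 3 arrays), and the log2 (EHL/LW) was 1.10 (standard error 0.30), or 2.15-fold. Without EHL array 1 the log2 ratio was 1.36. Quantile normalization took it from 1.10 to 0.65. Since each signal is a whole number, rounding alone leaves the log2 ratio between 1.67 and 1.76 for miR-184 and between 1.07 and 1.14 for miR-193a-5p, much less than the spread between arrays.

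**Figure D1:**
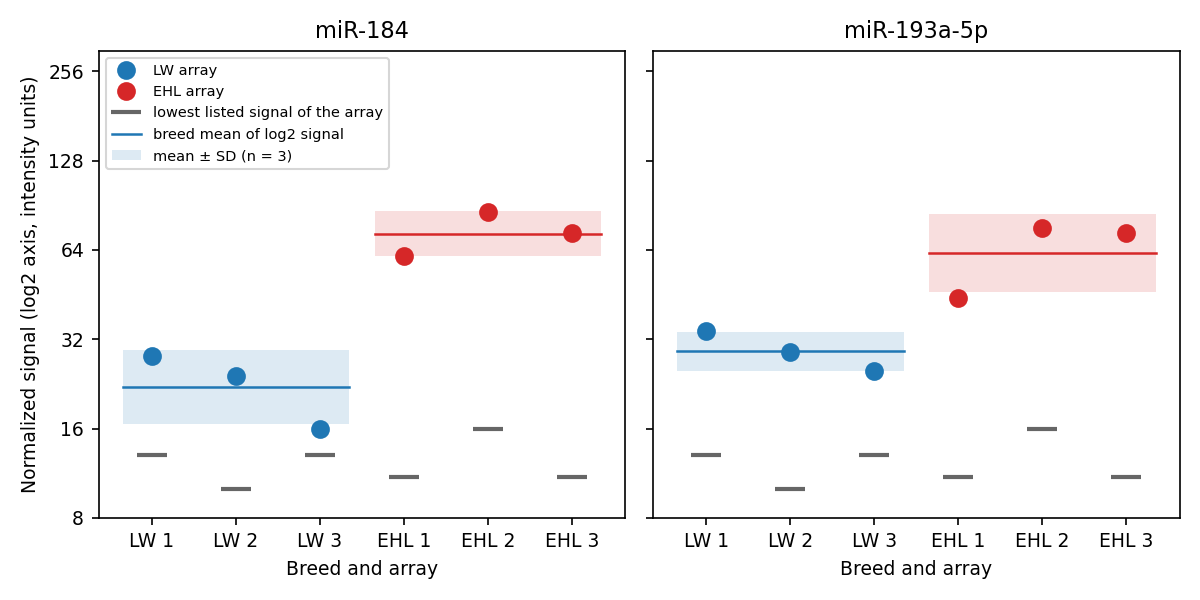
Normalized signal of miR-184 and miR-193a-5p on each array (points, log2 axis), with the breed mean of the log2 signals (line), its SD over 3 arrays (band) and the dimmest named miRNA of the same array (grey bar). All LW points lie at or below 34 and all EHL points at or above 44, and the LW point of miR-184 on array 3 lies just above the lowest listed signal.

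Both miRNAs were set against the dimmest signals of each array. The dimmest named miRNA had a signal of 13, 10 and 13 on LW arrays 1, 2 and 3, and 11, 16 and 11 on EHL arrays 1, 2 and 3. miR-184 stood at 2.15, 2.40 and 1.23 times this lowest signal on the LW arrays, and at 5.55, 5.38 and 6.64 times on the EHL arrays. The share of listed rows with a signal below that of miR-184 was 19.3%, 23.1% and 3.31% on LW arrays 1, 2 and 3, and 39.8%, 36.6% and 44.4% on EHL arrays 1, 2 and 3. LW array 3 was far below the other LW arrays in this share.

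For miR-193a-5p the signal was 2.62, 2.90 and 1.92 times the lowest listed one on LW arrays 1, 2 and 3, and 4.0, 4.75 and 6.64 times on EHL arrays 1, 2 and 3. The mean distance on the log2 scale was 1.29 ± 0.31 for LW and 2.33 ± 0.37 for EHL, against 0.89 ± 0.52 and 2.54 ± 0.16 for miR-184 (mean ± SD of 3 arrays). The share of listed rows below miR-193a-5p was 26.9%, 31.3% and 19.8% on LW arrays 1, 2 and 3, and 33.3%, 31.7% and 44.4% on EHL arrays 1, 2 and 3. The share depends on how many dim rows were listed, 134 rows being listed on LW array 2 and 101 on EHL array 2, so that it does not compare the signals of the arrays, 29 and 76. Named rows with a mean listed signal under 32 were mostly incomplete, with 10 listed on all 6 arrays and 47 on only some of them. Between 32 and 100, the range in which the mean over all arrays of both miRNAs fell (48.0 and 46.8), 20 rows were complete and 5 were not. Both reached this range only through EHL, for which they were chosen. Their LW means, 22.7 and 29.3, lay under 32, where most rows were incomplete. The study puts undetected miRNAs down to weak hybridization, and for some of them it proposes mismatches between the miRNA and its probe. The limit below which a cell was left blank is not given in the sources used here, and a blank gives no level.

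The spread of both miRNAs between arrays of one breed was close to the median of the complete rows, 0.35. The pooled within-breed SD of the log2 signal was 0.34 for miR-184 and 0.35 for miR-193a-5p, and 46 and 49 of the 96 complete rows had a smaller one. The median SD was 0.29 for the 10 rows with a mean signal under 32, 0.34 for the 20 rows from 32 to 100, 0.42 for the 37 rows from 100 to 500 and 0.29 for the 29 brighter rows. The class medians thus lay between 0.29 and 0.42, and they leave out the rows listed on only some arrays, which are mostly dim. Taken by breed, the SD of the log2 signal was 0.42 (LW) and 0.25 (EHL) for miR-184, and 0.22 (LW) and 0.44 (EHL) for miR-193a-5p. The median LW SD was 0.25 for the rows with a mean signal under 32 and 0.26 for those from 32 to 100. The LW means of both miRNAs, 22.7 and 29.3, lay under 32, and both reached the class from 32 to 100 only through EHL.

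**Figure D2:**
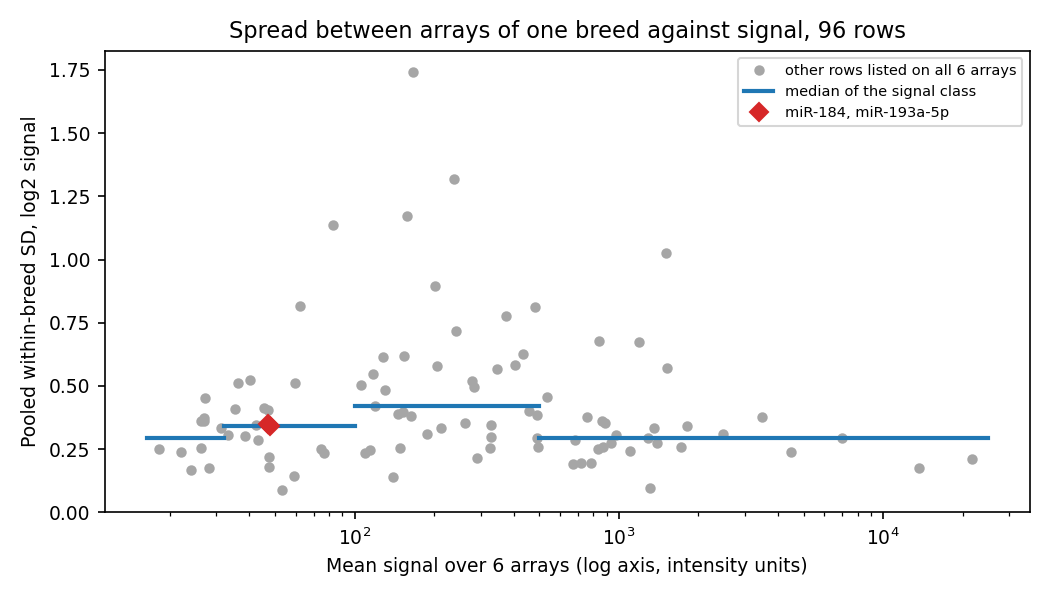
Pooled within-breed SD of the log2 signal against the mean signal (log axis) of the 96 miRNAs listed on all 6 arrays, with the median of each signal class (blue lines). miR-184 and miR-193a-5p (red, nearly on top of each other) lie at the median, 0.34, of the class set by their mean over both breeds. Their LW means alone, 22.7 and 29.3, lie in the class under 32.

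The rule asks that the lowest EHL signal be above the highest LW signal, and the distance between these on the log2 scale is called the margin here. It was above 0 for 11 of the 96 complete rows (11.5%), and for 7 (7.29%) all EHL signals were lower than all LW signals. miR-184 had the widest margin, 1.12, and miR-193a-5p the next, 0.37. They were followed by miR-130b with 0.34, miR-185 with 0.24 and miR-378 with 0.19. Just inside the rule lay miR-151-5p (0.055), miR-885-3p (0.051) and miR-143-3p (0.0094), and just outside it miR-128 (-0.040), miR-339-5p (-0.061) and miR-320 (-0.067). In the signals as deposited, the second place of miR-193a-5p was thus narrow, while the margin of miR-184 was 3 times as wide as any other. With each array centred on its median signal, the margins were 1.19 for miR-184 and 0.44 for miR-193a-5p.

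The margin of miR-193a-5p depended on the scale, and EHL array 1 narrowed it. Without that array it was 1.10, and that of miR-184 was 1.38, where leaving out an array can only keep or widen a margin. When each array was centred on the mean log2 signal of the hepatocyte miRNAs listed on all arrays (miR-122, miR-148a and miR-192), the margin of miR-193a-5p turned to -0.11. On that scale EHL array 1 (-7.18) lay below LW array 1 (-7.07) for miR-193a-5p. The log2 (EHL/LW) of miR-193a-5p was 1.10 on that scale and 1.10 as deposited, so only the separation was lost. The mean log2 signal of these hepatocyte miRNAs was 12.64 on EHL array 1 and between 11.83 and 12.26 on the other arrays. miR-148a stood out most there, with 2256 on EHL array 1 and 669 to 1326 on the other arrays. miR-192 had 5592 there and 3640 to 4832 elsewhere, while miR-122, with 20649, lay within its range on the other arrays. Centring on any of them alone was not tested. The margin of miR-184 stayed above 0 on that scale, at 0.64.

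**Figure D3:**
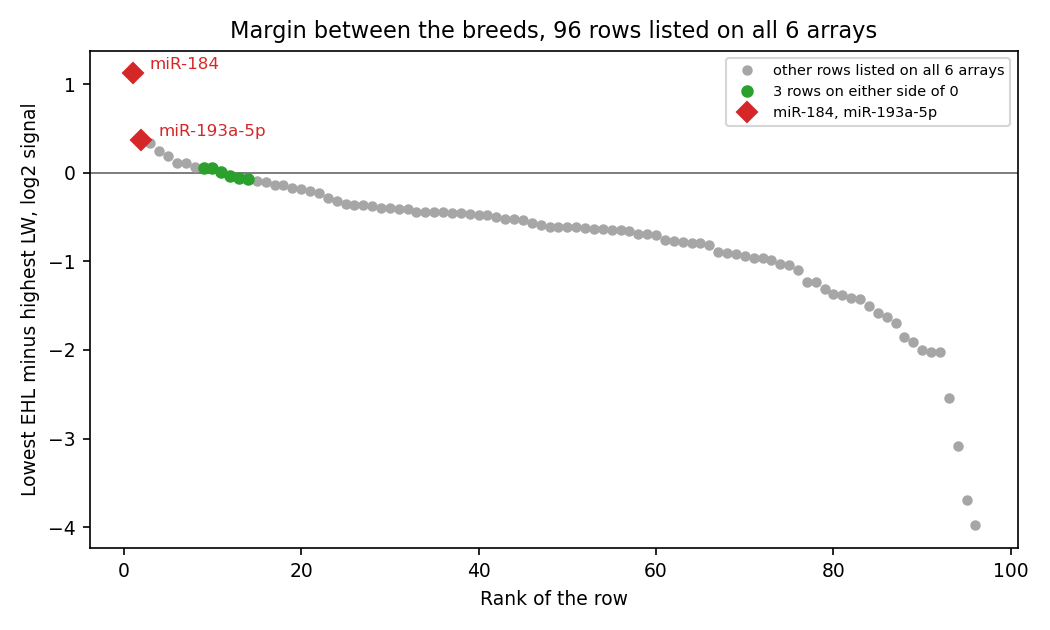
Margin (lowest EHL minus highest LW log2 signal) of the 96 miRNAs listed on all 6 arrays, ordered by rank. The margin is 1.12 for miR-184 and 0.37 for miR-193a-5p, and the green points are the 3 rows on either side of 0.

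Among the 109 named rows with a signal on at least 2 arrays of each breed, miR-184 had the highest log2 (EHL/LW) in the signals as deposited, followed by miR-532-5p with 1.28, miR-193a-5p, and miR-378 with 1.02, and no other row was above 1. The median over the 109 rows was 0.025. Centring each array on its median signal lowered all log2 ratios of complete rows by 0.043 and left 1.68 for miR-184 and 1.06 for miR-193a-5p.

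**Figure D4:**
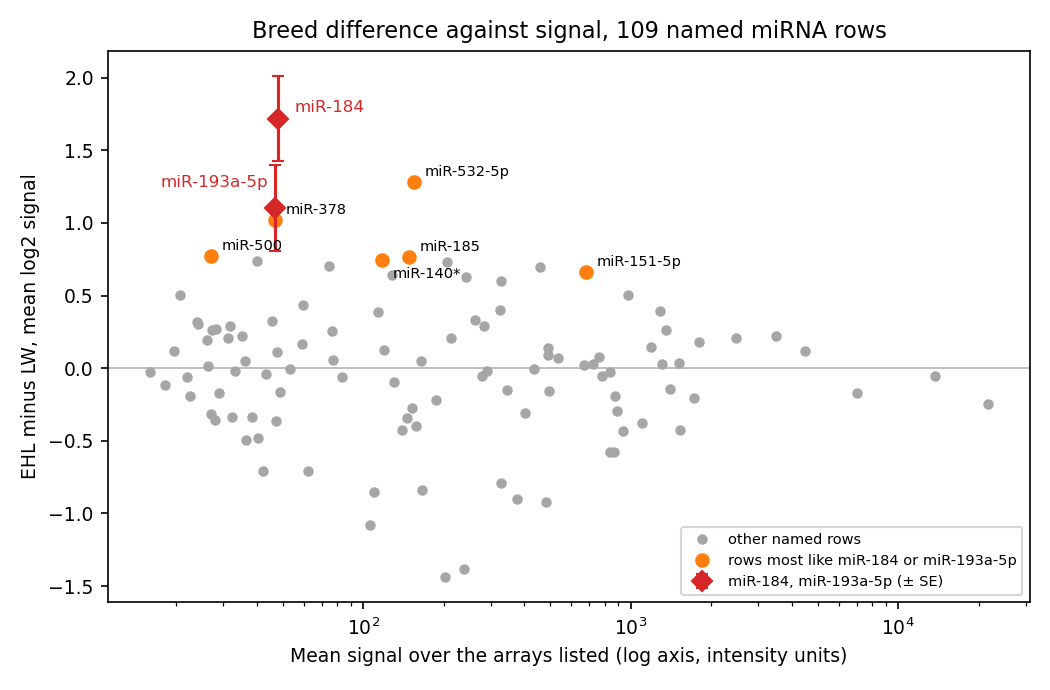
Log2 (EHL/LW) against the mean signal (log axis) of the 109 named rows compared, with the standard error drawn for miR-184 and miR-193a-5p (red) and the rows most like them in orange. miR-184 lies highest, at 1.72, and miR-193a-5p at 1.10 lies just above miR-378, which has nearly the same mean signal.

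The ratio of miR-184 to miR-193a-5p within an array does not depend on any factor by which a whole array is scaled. On the log2 scale it was -0.28, -0.27 and -0.64 on LW arrays 1, 2 and 3, and 0.47, 0.18 and 0.00 on EHL arrays 1, 2 and 3. The breeds did not overlap, and the mean ratio was 0.62 higher in EHL, or 1.53-fold, a difference that comes from the signals that chose both miRNAs and was not tested. Which of the miRNAs was the more abundant cannot be read from the signals of different probes. Within a breed both followed the same order of arrays. In LW, array 1 had the highest and array 3 the lowest signal of each, and in EHL, array 2 had the highest and array 1 the lowest.

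Likeness of pattern was measured as the root mean square difference of log2 signals over the 6 arrays, each row being centred on its own mean. Of the 95 other complete rows, the one most like miR-184 was miR-193a-5p (0.36), followed by miR-378 (0.43), miR-532-5p (0.47), miR-500 (0.53) and miR-185 (0.57), where the median over the rows was 0.93. The rows most like miR-193a-5p were miR-378 (0.13), miR-500 (0.22), miR-151-5p (0.26), miR-140* (0.28) and miR-185 (0.28), where the median was 0.67. miR-184 came 13th by this measure, and 15th when each breed was centred on its own mean. All of these rows had a higher mean log2 signal in EHL, which the measure reflects for miRNAs picked for that pattern. For miR-140* the breeds overlapped, with 84 on EHL array 1 and 115 on LW array 1.

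The likeness of miR-378 and miR-193a-5p was close on every array. miR-378, which lies within the PPARGC1B gene in mammals and is known from mitochondrial and lipid metabolism, had signals of 36, 27 and 28 on LW arrays 1, 2 and 3, and 41, 84 and 66 on EHL arrays 1, 2 and 3. As for miR-193a-5p, EHL array 1 was far below the other EHL arrays. When each breed was centred on its own mean, the breed difference no longer counted. miR-378 was then still the 2nd nearest of the 95 rows to miR-193a-5p (0.12), and miR-193a-5p was the 5th nearest to miR-184 (0.18). The other rows named as most like miR-184 fell back, miR-500 to 12th, miR-378 to 16th, miR-185 to 29th and miR-532-5p to 60th. For miR-193a-5p, miR-500 came 6th, miR-151-5p 7th, miR-140* 19th and miR-185 20th. miR-500, which shares a cluster on the X chromosome with miR-532, had signals of 23, 20 and 16 on LW arrays 1, 2 and 3, and 24, 34 and 45 on EHL arrays 1, 2 and 3, so that EHL array 1 was barely above LW array 1.

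**Figure D5:**
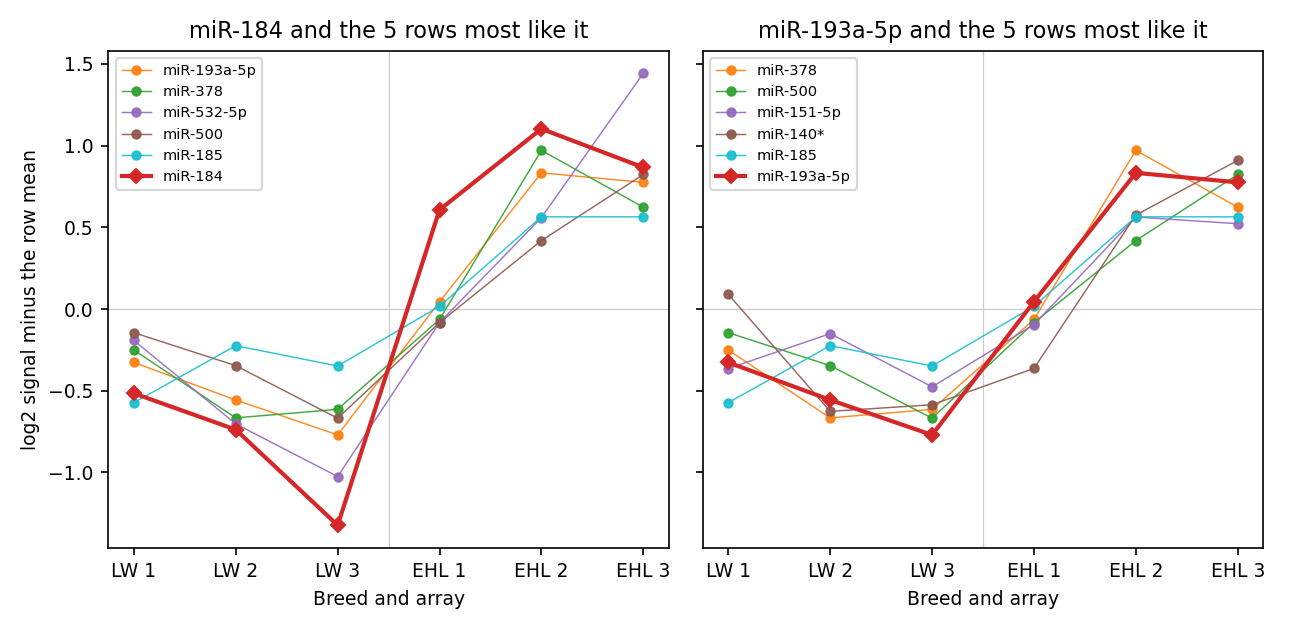
Log2 signal minus the row mean on each array for miR-184 (left) and miR-193a-5p (right), each in red, with the 5 rows most like it; lines only join the points of a row. EHL array 1 lies lowest of the EHL arrays for every row drawn, and miR-378 follows miR-193a-5p most closely, at a root mean square difference of 0.13.

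The family of miR-193a was taken as all rows of miR-193a, miR-193b and miR-365. Besides miR-193a-5p there were 3 such rows, and none was named miR-193b. miR-193a-3p, the other arm of the same hairpin, was listed at 17, 18 and 22 on LW arrays 1, 2 and 3, at 21 and 20 on EHL arrays 1 and 3, and was blank on EHL array 2. The breeds overlapped, and the log2 (EHL/LW) was 0.12 (standard error 0.29, 95% interval -0.54 to 0.77, limma, adjusted p = 0.921), with the sign turning under quantile normalization (-0.14) and on the scale of the hepatocyte miRNAs (-0.071). The interval includes no difference as well as a ratio of the other sign. All its signals lay near the lowest listed ones, which ran from 10 on LW array 2 to 16 on EHL array 2. The study itself counted miR-193a-3p as not detected by its array, because of low fluorescence. The ratio therefore does not show that this arm was equal in the breeds. Whether the arms differed from each other in their breed difference was not tested, since the 5p arm was chosen for its own. miR-365-3p, for which the gene table holds MIR365-2 beside MIR193A and MIR365-1 on chromosome 3, was listed at 15 and 20 on LW arrays 2 and 3 and on no EHL array, and miR-365-5p was blank on all 6, so that neither was compared.

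Lists of miRNAs typical of liver cells and of other cells were followed to see which of them moved with the breeds. Over the 109 rows, limma with Benjamini-Hochberg adjustment called 1 row (0.917%) higher in EHL and 0 rows (0%) lower at an FDR of 15%. The row called was miR-184 itself, which was chosen on the same contrast, so its call is no support. Nothing is read from these counts about miR-184 or miR-193a-5p. In both directions together 13 rows had an unadjusted p under 0.05, and the SAM statistic gave 1 row higher and 0 lower. The limma count of higher rows was 0 with quantile normalization, with centring on the hepatocyte miRNAs and with the replicate number as a block. It was also 0 without LW array 3 and without EHL array 2, and it was 15 without EHL array 1. The limma count of lower rows was 9 without EHL array 1 and 3 with array weights. Of the tested rows in the lists, limma and SAM called 0, and miR-204 alone had an unadjusted p under 0.05. The list of neural, eye and surface epithelial miRNAs, tissues in which miR-184 is known to be abundant, had 6 rows, of which 4 were blank on all 6 arrays (miR-7, miR-9-1, miR-124a and miR-183). miR-205, typical of squamous epithelium, was listed at 11 and 15 on LW arrays 2 and 3 and on no EHL array. miR-204, known from retinal pigment epithelium and other tissues, was listed at 221, 268 and 347 on LW arrays 1, 2 and 3, and at 220, 114 and 41 on EHL arrays 1, 2 and 3. Its log2 (EHL/LW) was -1.44 (standard error 0.53, limma, adjusted p = 0.291), with a sign opposite to that of miR-184. The summed signal of the list was 221, 279 and 362 on the LW arrays and 220, 114 and 41 on the EHL arrays. Both miRNAs of the pancreas with a row, miR-216 and miR-217, were blank on all arrays.

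Of the hepatocyte miRNAs, 3 were tested and 0 passed the FDR of 15%, with a median log2 (EHL/LW) of 0.12, where the median over all 109 rows was 0.025. For miR-122 it was -0.25, with a standard error of 0.26 and an adjusted p of 0.761 in limma. For the endothelial miR-126 the log2 ratio was 0.22, and the 7 tested rows of smooth muscle and stellate cells, of which miR-214 was the brightest by the mean over both breeds and miR-199a* in LW, went both ways. Their median was -0.022 with 3 above 0, from -0.58 for miR-199b* to 0.60 for miR-143-3p, and limma and SAM called 0. The leukocyte and striated muscle lists had no row with enough signals for the test, and their brightest rows were miR-142, listed at 12 on EHL array 3, and miR-133a-3p. RNA of whole liver was measured, and fewer cells of a type and less RNA per cell cannot be told apart.

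Of the erythroid miRNAs, miR-451 set EHL array 1 apart, and miR-144 had no row. miR-451, which is abundant in red cells and their precursors, had a signal of 376 on that array, against 54 and 63 on EHL arrays 2 and 3 and 220, 100 and 134 on LW arrays 1, 2 and 3. The summed signal of miR-451 and miR-486, both listed on all 6 arrays, was 249, 124 and 159 on LW arrays 1, 2 and 3, and 410, 78 and 85 on EHL arrays 1, 2 and 3. Most of this sum was miR-451, as miR-486 had 34 on EHL array 1 and 22 to 29 on the other arrays. Of these 2 rows, limma and SAM called 0. Within EHL, array 1 was also the array with the lowest signal of miR-184 and of miR-193a-5p, while within LW the array with the most miR-451, array 1, had the highest signal of both. The part of erythroid RNA in these values was not tested, and the log2 ratio without that array, 1.84 for miR-184 and 1.36 for miR-193a-5p, was the higher one for both.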

How the data were processed

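Liver miRNA of 6 pooled samples (3 LW, 3 EHL) was hybridized to single-colour Cy5 pig miRNA arrays with probes for miRBase release 16. The authors subtracted the background, normalized by LOWESS and deposited normalized intensities as whole numbers, with blank cells. Image files and the sequencing, RT-qPCR and mRNA data were not analysed here. On the log2 scale, limma 3.58.1 in R 4.3.3 (lmFit, eBayes) tested EHL/LW with a breed term. It covered the 109 rows with a pig miRNA name that had a signal in each breed on 2 or more arrays, and p was adjusted by Benjamini-Hochberg at the study's FDR of 15%. Figures and sequence comparisons used Python 3.11.15. The standard errors are limma's. The 100 rows labelled LRS were left out. SAM was recomputed in R over 20 relabellings of the arrays. limma and SAM were tested on simulated data. The number of arrays limits the precision, and p-values measure the spread between litter pools.

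The members, lists and tests were chosen with earlier results of these data known. The text names both miRNAs, the miR-193 and miR-365 rows, the 5 rows most like each, the 3 rows on either side of a margin of 0, the brightest row of each marker list, and miRNAs near in sequence. Rows named beyond these were chosen after their values had been seen. Primer sequences come from the study's supplement. Gene neighbours come from RefSeq's Sscrofa11.1 table, and no coordinate is given, since no build is stated for the array. Alternatives were another scaling between arrays, an offset, filled blanks, a replicate block, array weights, other filters, SAM, another floor and each array left out in turn.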

Additional observations from a re-analysis of the deposited data

How the results depend on the processing

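The sign of the log2 (EHL/LW) of miR-184 and miR-193a-5p with an array left out is fixed by how they were chosen, and the replicate block and filled blanks cannot move it, so only sizes are given. It was 1.21 for miR-184 with 16 added to each signal before log2, and 0.65 for miR-193a-5p with quantile normalization. With each array left out in turn, it ranged from 1.49 to 1.89 for miR-184 and from 0.96 to 1.36 for miR-193a-5p. The margin of miR-184 was 0.75 with quantile normalization and 0.64 with centring on the hepatocyte miRNAs, and that of miR-193a-5p was 0.0054 and -0.11. Leaving out an array can only keep or widen a margin, which then lay from 1.12 to 1.38 and from 0.37 to 1.10, and this is no check of stability. The mean distance from the lowest listed signal in LW ranged from 0.70 to 1.18 for miR-184 and from 1.17 to 1.46 for miR-193a-5p, and was 0.59 and 0.99 above the 5th percentile of the listed signals. Apart from the fewer arrays and the offset, which shrinks ratios of dim rows, the cause was not tested.

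The log2 ratio of miR-193a-3p changed sign with quantile normalization (-0.14), with centring on the hepatocyte miRNAs (-0.071) and with blanks at the lowest listed signal (-0.00086), and ranged from 0.042 to 0.23 over the 4 fits without an array that could be run. Without EHL array 1 or 3 it had too few signals. The number of miRNAs called higher by limma was 1. It was 0 with quantile normalization, with centring on the hepatocyte miRNAs and with the replicate block (11, 6 and 8 at an unadjusted p under 0.05), 4 with array weights, and from 0 (without LW array 3 or EHL array 2) to 15 (without EHL array 1) with an array left out. The number called lower was 0, and 3 with array weights, and from 0 to 9 with an array left out, the highest again without EHL array 1. SAM gave 1 and 0, with 4 miRNAs next at a q-value of 16.5%, and 3 and 0 with the q-value estimated in each direction alone, an alternative chosen after seeing the data.

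With the replicate block, which called 0 miRNAs with 8 of 108 at an unadjusted p under 0.05, the log2 ratios of both miRNAs were the same by construction. The deviations of same-numbered arrays had correlations of -0.50, -0.011 and -0.66, and 0 of 6 arrays came closest to the array of their own number. With 3 arrays per breed, these values cannot tell whether same-numbered arrays shared a step of processing. The labels name no such step. Depth has no counterpart here, and signal over the lowest listed one limits both miRNAs in LW.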
